A study of Oncorhynchus mykiss with 20 samples.

Results

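The comparison described here covers the intestine of the Commercial strain of rainbow trout (Oncorhynchus mykiss) at 65 days post hatch (dph) against 20 dph. Its members were all libraries that the labels give to this strain, 5 at 65 dph and 5 at 20 dph, which makes 10 of the 20 libraries of the series. The remaining 10 libraries came from the Select strain at the same ages. They served to show whether the change with age differed between strains. The statistical fit held all 20 libraries, so the Select libraries also shaped its filter, scaling and estimate of spread. All fish were females. Both strains grew from eggs in flowing spring water at 15 °C, went to separate raceways at hatching and ate a commercial starter feed throughout. The 20 dph fry had eaten for 10 days. The 65 dph fry were sampled shortly before the age at which these fish would usually be moved to plant protein feed. Whole intestines were taken, so each library mixes epithelium, muscle, connective tissue, nerves, blood and immune cells, and in such bulk samples fewer cells of a type and less RNA per cell cannot be told apart. The labels call the libraries biological replicates. Each age was sampled at its own time, so age and time of sampling cannot be told apart.

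A trout fry hatches with a yolk sac and lives on yolk lipid and protein before and while it learns to feed. Its intestine then has to take over digestion with brush-border enzymes, absorb lipid as lipoprotein particles, and take up whole proteins by endocytosis for breakdown in lysosomes. Lymphocytes settle in the gut wall of teleost fish as the young animal grows.

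Levels are given as CPM (reads of a gene scaled to a common library total), corrected for library composition by the trimmed mean of M-values (TMM), and values of a group run from replicate 1 to replicate 5. A fold change is the log2 of 65 dph over 20 dph, with an approximate standard error (SE). A feature (a gene, or a transcript without a gene name) was called when edgeR's quasi-likelihood test gave a Benjamini-Hochberg adjusted p under 0.05 over all 32166 features tested. In all 9680 features, 30.1% of those tested, were called, with 4657 higher (14.5%) and 5023 lower (15.6%) at 65 dph. Of the called features 4633 changed by more than 1 on the log2 scale. The groups did not overlap in CPM for 6803 features, 21.1% of those tested. Among the 5297 tested genes with a symbol 2059 were called (38.9%), 756 higher and 1303 lower. The even split rests on the composition correction: scaled by library size alone, 11139 features were called, 8212 higher and 2927 lower, and the median log2 fold change over all features was 0.33 in place of 0.05. The 10 most abundant features took 6.55% of reads at 65 dph and 7.19% at 20 dph.

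**Figure D1:**
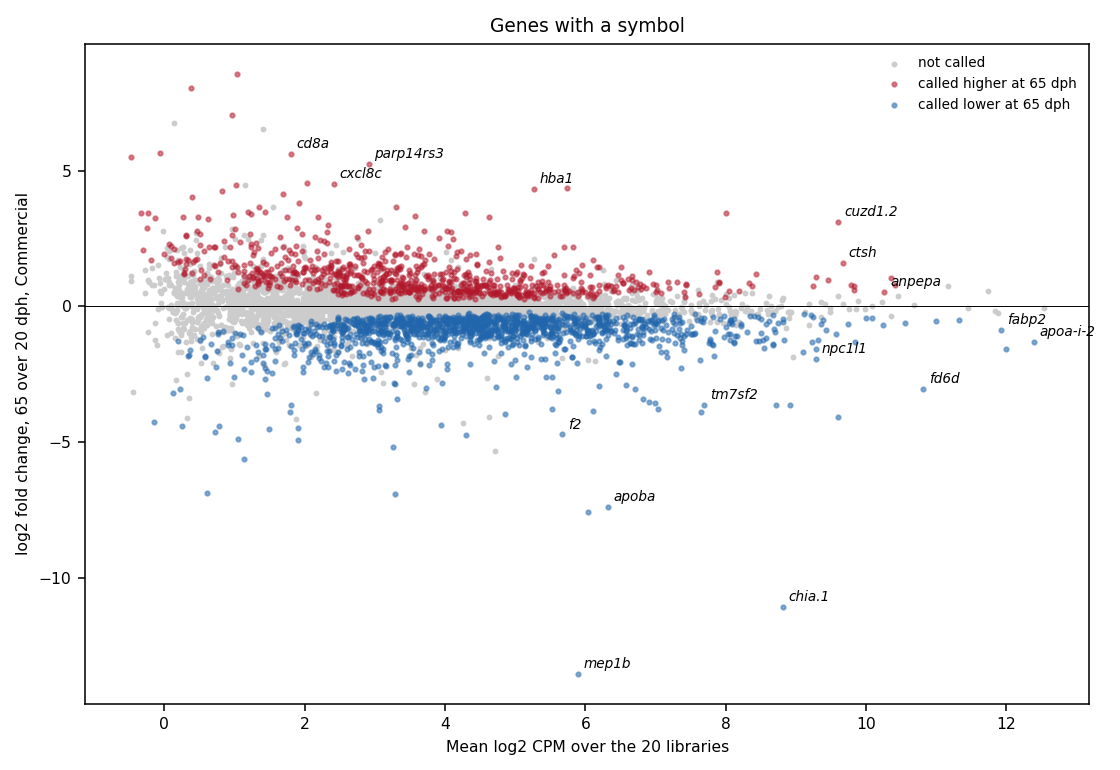
Each point is 1 of the 5297 tested genes with a symbol, with the mean log2 CPM over the 20 libraries on the x axis and the log2 fold change of 65 over 20 dph in Commercial on the y axis. The 756 genes called higher and the 1303 called lower cover the whole range of levels. The points of mep1b and chia.1 lie lowest among the labelled genes, and the fitted value of mep1b depends on a prior count because it had 0 counts at 65 dph.

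A pair of libraries stood apart. Commercial 65 dph replicate 2 was most like a Select library, Select 65 dph replicate 5 (r = 0.907 over features, a description). That Select library was in turn most like Commercial replicate 2 and not its own group mates. At 51 features that separated the strains at 20 dph, Commercial replicate 2 was nearer to the Select 20 dph mean at 37. Its 4 group mates were so at 19 to 25 and the Select 65 dph libraries at 36 to 42, which puts its strain label in doubt. It also held more reads of smooth muscle genes (0.37% against 0.147 to 0.178%) and of matrix genes (0.336% against 0.107 to 0.142%) than the other 65 dph libraries. Without it 8921 features were called, 4031 higher and 4890 lower. Commercial 20 dph replicate 5 held more reads of liver genes (0.0335% against 0.00378 to 0.0123% in the other 20 dph libraries). Without it 9743 features were called. Expected counts per library came to 8425216 ± 828198 at 65 dph and 10193880 ± 1293476 at 20 dph (SD, n = 5 each). Of the markers set for intestinal epithelium, vil1, the actin bundler of microvilli, averaged 1010 TPM (an abundance scaled for transcript length and depth) at 65 dph and 1100 TPM at 20 dph, and was called lower in the fit of counts (log2 fold change -0.51, edgeR adjusted p = 0.00937). The fatty acid carrier fabp2 ranked first in TPM among genes with a symbol at both ages, with 9750 ± 736 TPM at 65 dph and 13800 ± 1100 TPM at 20 dph (SD, n = 5 each). The peptide transporter gene slc15a1a averaged 120 TPM at 65 dph and 226 TPM at 20 dph. The intestinal factor cdx1b averaged 166 TPM at 65 dph and 84.2 TPM at 20 dph. The keratin gene krt18b averaged 47.9 TPM at 65 dph and 56.1 TPM at 20 dph. All 5 markers were thus present at both ages. TPM values lack the composition correction, so their ratios differ from the fitted fold changes. The other markers set, cdh17, hnf4a, epcam, cdh1, krt8 and krt20, had no tested gene under that exact symbol and could not be checked.

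Gene lists on 41 subjects held 756 genes matched by symbol, of which 669 passed the filter on low counts. Of those 669, 357 were called, 93 higher and 264 lower, with a median log2 fold change of -0.35, beside -0.10 over all tested genes with a symbol. In each list only members with a symbol could be counted, since most trout genes in the table carry a locus number alone.

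**Figure D2:**
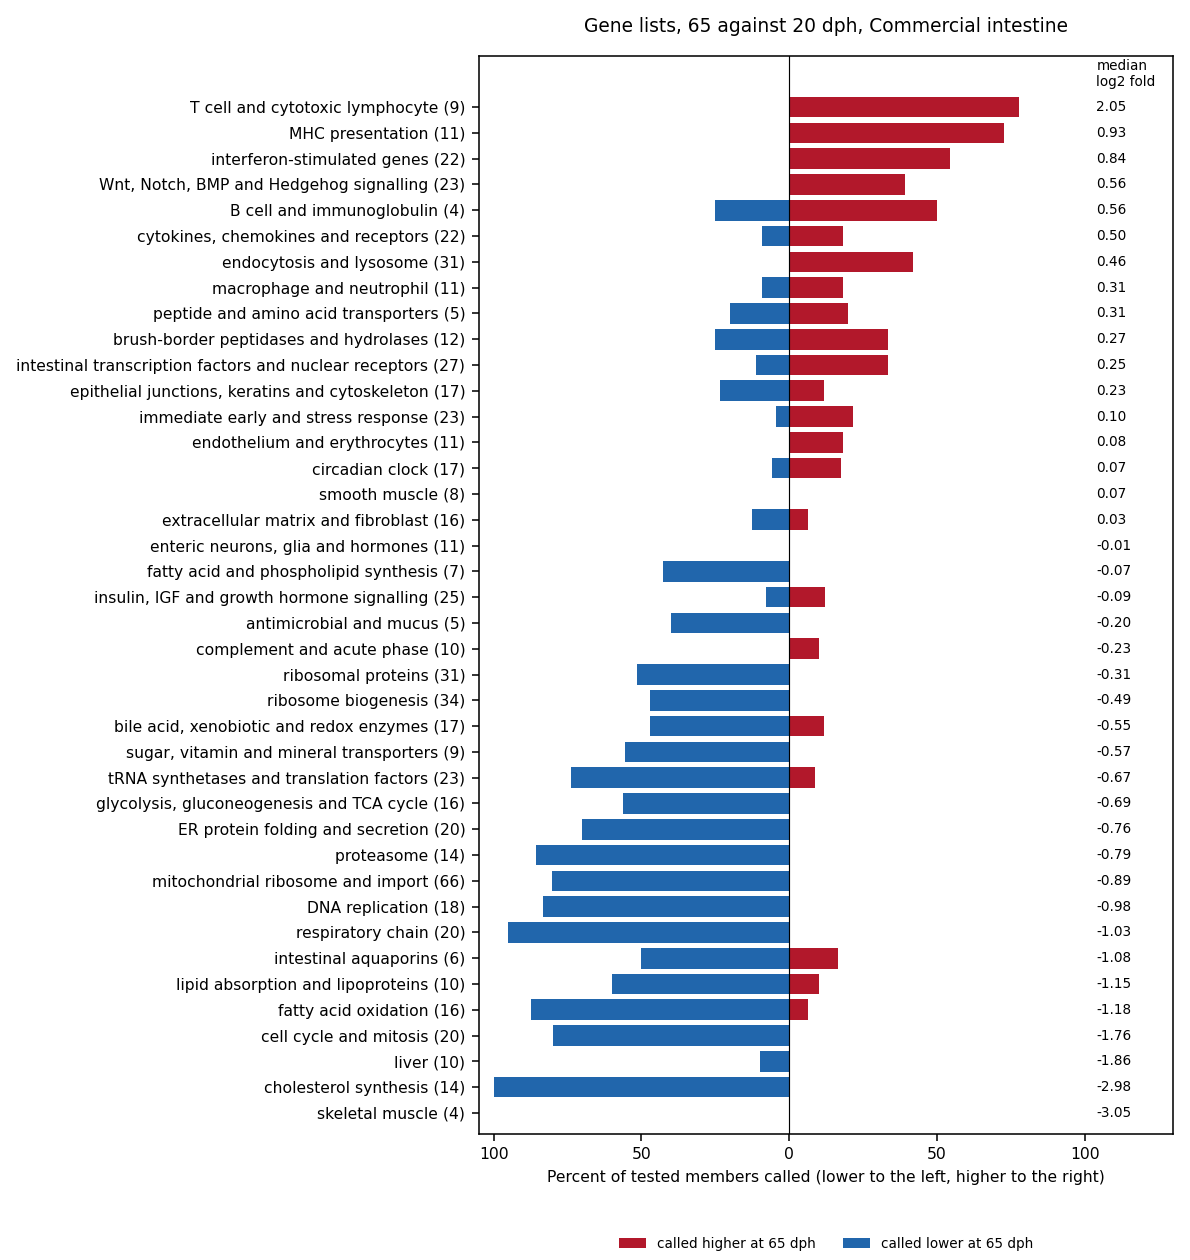
Bars give the percent of tested members called higher (right) and lower (left) at 65 dph for each list with at least 4 tested members, the number tested stands in parentheses, and the median log2 fold change is printed at the right. T cell genes top the plot with 7 of 9 higher, and all 14 tested genes of cholesterol synthesis were lower.

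Genes of cholesterol synthesis fell throughout. All 14 tested members were called lower, none overlapped between the ages, and their median log2 fold change was -2.98. The sterol reductase gene tm7sf2 had 30.2, 12.9, 32.9, 61.6 and 43.3 CPM at 65 dph, against 496, 558, 459, 454 and 306 CPM at 20 dph. Every 20 dph library lay several fold above every 65 dph library, and the fold change was -3.65 (SE 0.37, edgeR adjusted p = 1.43e-06). Of the isoprenoid steps before sterols, idi1 (isopentenyl diphosphate isomerase) had 22.7, 7.92, 20.8, 34.5 and 25.9 CPM at 65 dph, against 234, 339, 292, 267 and 171 CPM at 20 dph. These groups were also far apart (-3.54, SE 0.41, edgeR adjusted p = 5.72e-06). Of the same steps mvda (mevalonate diphosphate decarboxylase) fell by 3.98 and fdps (farnesyl diphosphate synthase) by 3.77 on the log2 scale. The regulators followed: srebf2, the transcription factor that switches the pathway on when sterols are low, fell by 2.13, and insig1, which holds that factor in the endoplasmic reticulum (ER), fell by 2.09. The smallest change was in pmvk, phosphomevalonate kinase (-0.33, SE 0.10).

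Of 10 tested genes of lipid uptake and packing 6 were also called lower, while 1 was higher (median -1.15). The cholesterol importer of the brush border, npc1l1, had 259, 235, 349, 303 and 333 CPM at 65 dph, against 1100, 1150, 1290, 974 and 1190 CPM at 20 dph. The groups did not overlap (-1.95, SE 0.19, edgeR adjusted p = 9.48e-07). The sterol exporter abcg5 was called higher (0.68, SE 0.22), a call lost under 7 of 19 other settings, and its partner abcg8 was not called (0.22, SE 0.16). Apolipoprotein B gene apoba, which encodes the scaffold of lipoprotein particles, had 1.36, 0.55, 0.533, 0.125 and 0.227 CPM at 65 dph, against 124, 66.5, 74.6, 102 and 127 CPM at 20 dph. This was the widest fall in the list (-7.38, SE 0.90), and the 20 dph libraries lay close together. The carrier fabp2 had 2750, 2530, 2800, 2740 and 3400 CPM at 65 dph, against 5840, 4540, 5170, 5620 and 5070 CPM at 20 dph. Its groups were apart by a smaller step (-0.88, SE 0.17). The apolipoprotein A-I genes, which encode the main protein of high density lipoprotein, were among the 3 most abundant genes with a symbol at 20 dph. Of these apoa-i-2 fell by 1.32, with 5790 ± 1380 TPM at 65 dph and 11100 ± 1790 TPM at 20 dph, and apoa-i-1 fell by 1.57, with 3700 ± 1170 TPM at 65 dph and 8410 ± 1330 TPM at 20 dph (SD, n = 5 each). The fold changes are from composition-corrected counts and the TPM values lack that correction, so the TPM ratios are smaller.

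Most tested genes of fatty acid oxidation fell, as did a desaturase gene. The delta-6 fatty acyl desaturase gene fd6d, which starts the making of long polyunsaturated fatty acids, had 378, 261, 465, 400 and 473 CPM at 65 dph, against 3350, 2660, 3070, 3880 and 3440 CPM at 20 dph. The groups lay far apart (-3.05, SE 0.22, edgeR adjusted p = 1.55e-07). Of 16 tested genes of fatty acid oxidation 14 were called lower and 1 higher (median -1.18). Of the mitochondrial members hadhb, a subunit of the trifunctional protein, had 213, 149, 167, 223 and 221 CPM at 65 dph, against 450, 441, 363, 451 and 382 CPM at 20 dph. Again no library of either age reached the other group (-1.10, SE 0.12). The gene cpt2, whose enzyme releases fatty acids from carnitine, fell by 1.40. The member that rose was pparab (0.91, SE 0.26), which encodes a nuclear receptor that switches on oxidation genes. Of 7 tested genes of fatty acid and phospholipid synthesis 3 fell (acaca, gpam and elovl1b), and scdb, the stearoyl-CoA desaturase, averaged 335 ± 131 CPM at 65 dph and 182 ± 41.4 CPM at 20 dph (SD, n = 5 each) and was not called. With library size alone the counts of that list were 3 higher and 3 lower. The called share of the list, 42.9%, was near the 38.9% of all tested genes with a symbol.

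Mitochondrial genes fell as a block. Of 20 tested genes of the respiratory chain 19 were called lower (median -1.03), 18 of the 20 with groups that did not overlap. Of 66 tested genes of the mitochondrial ribosome and of protein import into mitochondria 53 were lower and none higher (median -0.89). The groups did not overlap for 33 of the 66, beside 280 of all 669 tested list members and 21.1% of all features tested. The large subunit gene mrpl37 had 32, 16.6, 27.3, 42 and 22.3 CPM at 65 dph, against 92.6, 96.5, 80.7, 100 and 50.1 CPM at 20 dph. Its groups did not overlap (-1.58, SE 0.22). Of 16 tested genes of glycolysis, gluconeogenesis and the citric acid cycle 9 were lower (median -0.69). These included ogdha of the oxoglutarate dehydrogenase complex (-1.29) and pgk1, phosphoglycerate kinase (-0.94), while gapdh was not called (-0.23, SE 0.21). Among 17 tested redox and xenobiotic genes 8 were lower and 2 higher. Catalase gene cat fell by 1.84 and superoxide dismutase gene sod1 by 1.29. Heme oxygenase gene hmox1a rose by 2.78 (SE 0.45), with 28.5, 18.3, 21.6, 34 and 12.5 CPM at 65 dph, against 2.6, 3.59, 3.27, 2 and 5.27 CPM at 20 dph. The lowest 65 dph library still stood above the highest at 20 dph.

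Cell division genes fell in both lists that cover them. Of 20 tested genes of the cell cycle and mitosis 16 were lower and none higher (median -1.76). The topoisomerase gene top2a, active in dividing cells, had 42.1, 33.3, 29.2, 51.1 and 26.9 CPM at 65 dph, against 164, 155, 133, 177 and 128 CPM at 20 dph. The groups did not overlap (-2.05, SE 0.18, edgeR adjusted p = 4.31e-07). Mitotic kinesin genes kif20a and kif4 fell by 2.32 and 1.74. The genes of the G1/S switch e2f1 (-0.16, SE 0.21), ccne1 (-0.13, SE 0.19) and cdc6 (-0.34, SE 0.26) were not called. Of 18 tested genes of DNA replication 15 were lower (median -0.98). Thymidine kinase gene tk1 fell by 2.09 and the helicase subunit gene mcm7 by 1.34.

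Many tested genes for making and handling proteins were lower, by smaller steps. Of 23 tested tRNA synthetases and translation factors 17 were lower and 2 higher (median -0.67). The synthetase gene eprs1 fell by 1.06 (SE 0.12). Of 34 tested genes of ribosome biogenesis 16 were lower (median -0.49), among them ncl, nucleolin (-0.87, SE 0.13). That count was 9 without Commercial 20 dph replicate 2 and 9 in the fit on the 10 Commercial libraries alone. With library size alone it was 6 lower and 2 higher. In the main fit the called share of the list was 47.1%, beside 38.9% of all tested genes with a symbol. Of all 5297 tested genes with a symbol 1303 were called lower. Only 2 of the 34 had groups that did not overlap, ncl among them. Such groups were found for 280 of all 669 tested list members and 21.1% of all features tested. Of 31 tested cytosolic ribosomal protein genes 16 were lower (median -0.31), a count that depends on the composition correction, since with library size alone 3 were lower and the median was -0.03. Of 20 tested genes of ER folding and secretion 14 were lower (median -0.76). Oligosaccharyltransferase gene ddost had 137, 79.6, 120, 168 and 138 CPM at 65 dph, against 336, 382, 326, 333 and 274 CPM at 20 dph. Its groups did not overlap (-1.36, SE 0.17).

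Proteasome subunits moved in opposite directions by type. The proteasome breaks down tagged proteins, and immune cells and interferon-exposed cells swap its catalytic subunits for immunoproteasome forms that cut peptides for presentation by MHC class I. Of 14 tested genes of the standard proteasome 12 were lower and none higher (median -0.79). The catalytic subunit gene psmb7 had 40.4, 31.1, 41.9, 62.2 and 32.5 CPM at 65 dph, against 115, 138, 104, 130 and 100 CPM at 20 dph (-1.50, SE 0.19). The immunoproteasome subunit gene psmb8a had 32.9, 44.9, 51.7, 49.3 and 49 CPM at 65 dph, against 18.9, 14.1, 19.8, 12.5 and 15.5 CPM at 20 dph (1.49, SE 0.23). Neither gene's groups overlapped. The immunoproteasome gene psmb9a (0.93, SE 0.22) and psmb12, a related subunit gene of fish (1.14, SE 0.23), rose too, while psmb13a did not pass the test (0.09, SE 0.18).

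Antigen presentation and T cell genes rose. Of 11 tested genes of MHC presentation 8 were higher and none lower (median 0.93). They included cd74b, the invariant chain that escorts MHC class II (2.19, SE 0.28), the peptide transporter gene tap1 (0.75, SE 0.16), and nlrc5, a regulator of MHC class I genes in mammals (1.99, SE 0.26). The list also holds psmb8a, psmb9a, psmb12 and psmb13a, so the genes given above with the proteasome are counted here again. Of 9 tested T cell and cytotoxic lymphocyte genes 7 were higher and none lower (median 2.05), and the count was 7 with each Commercial library left out in turn. The T cell receptor complex gene cd3e had 32.1, 24.4, 26.7, 24.3 and 20.9 CPM at 65 dph, against 3.76, 3.36, 4.58, 3.88 and 2.87 CPM at 20 dph. Each 65 dph library was several fold above each 20 dph library (2.79, SE 0.17, edgeR adjusted p = 4.82e-08). The co-receptor gene cd8a of cytotoxic T cells had 6.99, 5.39, 7.03, 7.11 and 2.95 CPM at 65 dph, against 0.179, 0.116, 0.109, 0 and 0.12 CPM at 20 dph. It was the widest rise among genes with a symbol that passed the level and overlap limits (5.61, SE 0.59). Other members that rose were il7r, the interleukin 7 receptor (2.18), and tcf7, a T cell transcription factor (2.33). The T cell genes together took 0.00634 to 0.00823% of reads at 65 dph and 0.00109 to 0.00162% at 20 dph.

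**Figure D3:**
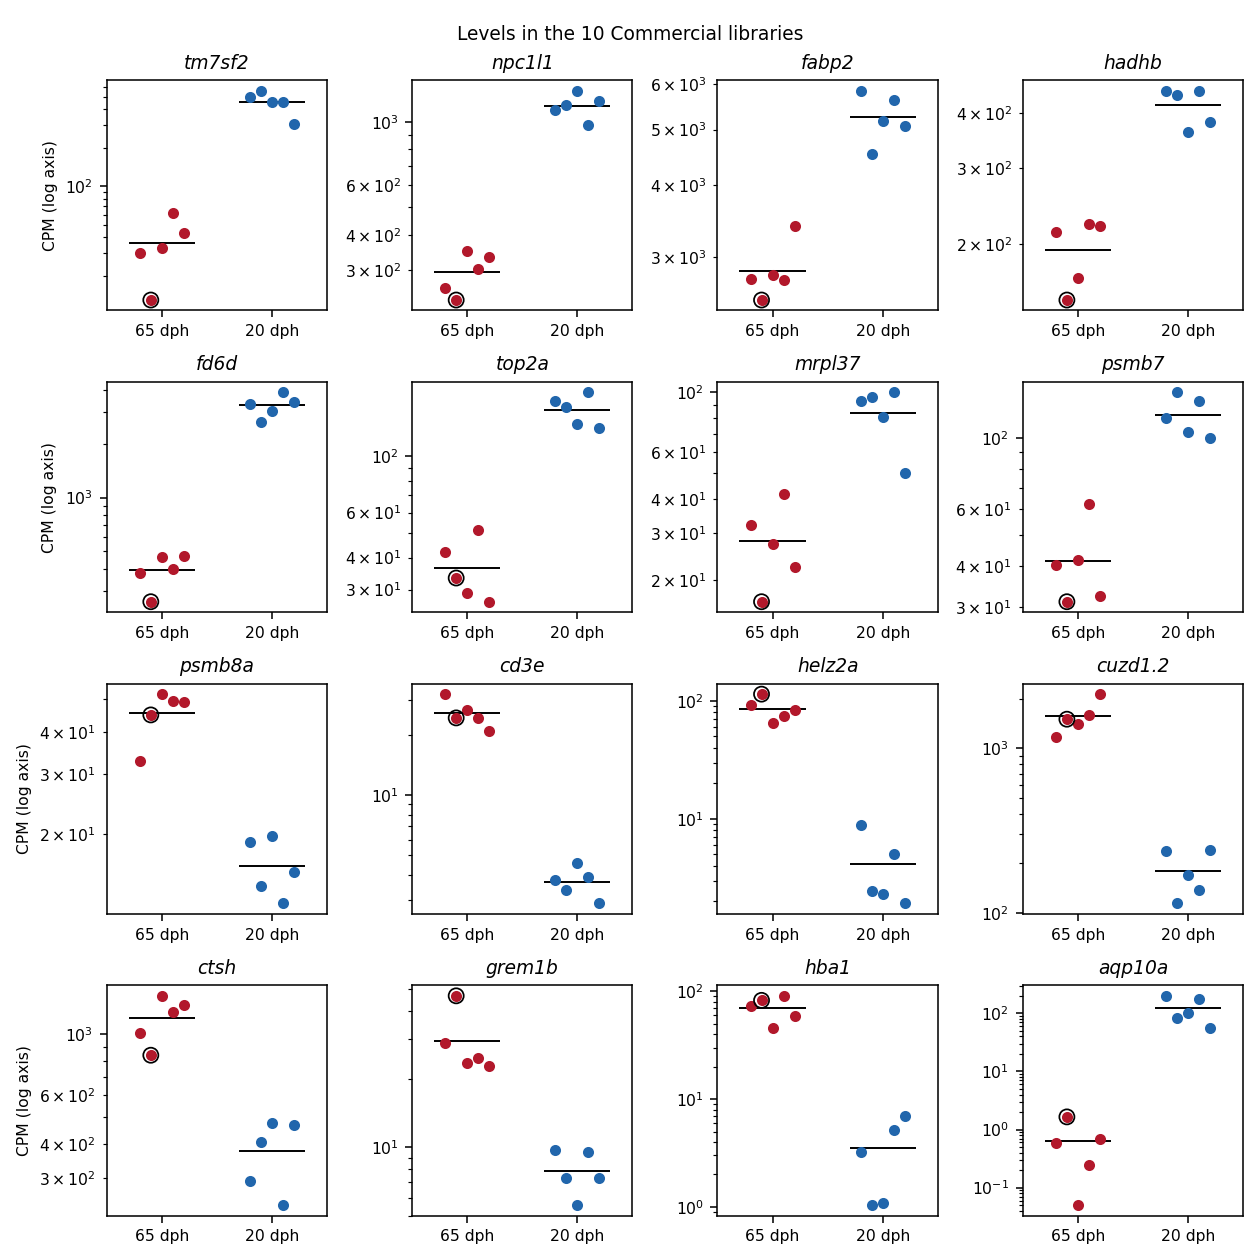
Each panel shows 1 gene in the 10 libraries on a log axis of CPM, with 65 dph at the left and 20 dph at the right, a bar at the group mean, and a ring around Commercial 65 dph replicate 2. Zero counts are drawn at 0.05 CPM. In all 16 panels the groups do not overlap, for example cd3e at 20.9 to 32.1 CPM at 65 dph against 2.87 to 4.58 CPM at 20 dph. The panels are picked examples, and the rule for naming the widest changes itself required separate groups. The count of 16 is therefore no measure of how common such separation was. Over the whole set of features its share was 21.1%.

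B cell genes gave a mixed picture over 4 tested members. The B cell receptor chain gene cd79b (2.39, SE 0.45) and the adaptor gene blnk (0.72, SE 0.16) rose, btk was not called (0.41, SE 0.18), and prdm1b was lower (-0.90, SE 0.29). The last call was lost under 7 of 19 other settings. Of 22 tested interferon-stimulated genes 12 were higher and none lower (median 0.84), and 6 were higher without Commercial 65 dph replicate 5. Helicase gene helz2a had 92, 114, 65.5, 74.4 and 84.4 CPM at 65 dph, against 8.86, 2.43, 2.29, 5.06 and 1.92 CPM at 20 dph. The groups were well apart (4.36, SE 0.56). Outside that list parp14rs3, a relative of mammalian PARP14, had 13.3, 14.6, 13.5, 14.2 and 15.1 CPM at 65 dph, against 0.806, 0, 0, 0.823 and 0.12 CPM at 20 dph (5.24, SE 0.71). It was even across the 65 dph libraries and near 0 at 20 dph. The antiviral genes mx2 (2.66, SE 0.74) and ifit8 (3.27, SE 0.42) rose, while the RNA sensor genes ifih1 (0.04, SE 0.15) and tlr3 (0.11, SE 0.13) were not called. Of 22 tested cytokine and receptor genes 4 were higher and 2 lower (median 0.50), and these counts were 9 and 2 without Commercial 20 dph replicate 5, and 9 and 1 with library size alone. The called share of the list, 27.3%, lay below the 38.9% of all tested genes with a symbol. The neutrophil-attracting chemokine gene cxcl8c had 7.86, 17.4, 7.88, 4.61 and 7.61 CPM at 65 dph, against 0, 0.463, 0.436, 0.823 and 0.24 CPM at 20 dph. That was a log2 rise of 4.52 (SE 0.64) with no overlap. The T cell growth factor gene il15 (0.87) and the receptor gene il2rb (1.39) also rose, and tgfb2 and tgfb3 were lower (-1.41 and -1.34). Of 11 tested macrophage and neutrophil genes 2 were higher, the perforin-like mpeg1.1 (1.01, SE 0.17) and vsir (1.48, SE 0.20). The called share of that list was also 27.3%. The 1 lower member of that list, cpa5, is a carboxypeptidase gene that the pancreas list holds too.

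Of 31 tested genes of endocytosis and lysosomes 13 were higher and none lower (median 0.46), and 8 were higher without Commercial 20 dph replicate 1 and likewise 8 without Commercial 20 dph replicate 4. With library size alone 21 were higher. The called share of the list, 41.9%, was near the 38.9% of all tested genes with a symbol. Cathepsin H gene ctsh, a lysosomal protease, had 1010, 840, 1380, 1210 and 1280 CPM at 65 dph, against 294, 408, 478, 240 and 468 CPM at 20 dph. The groups did not overlap (1.60, SE 0.23, edgeR adjusted p = 4.94e-05). The lysosomal cystine exporter gene ctns (2.21), the ganglioside activator gene gm2a (1.46) and the protective protein gene ctsa (1.06) rose as well. The scavenger receptor gene cubn, which takes up filtered and dietary proteins, had a value of 0.76 (SE 0.29) and was not called, and neither was its partner lrp2b (0.07, SE 0.45). Summed reads of the list were 1.15 to 1.76% at 65 dph and 0.568 to 1.14% at 20 dph. Outside the lists, the fucosidase gene fuca2 (1.05, SE 0.23) was, among genes with a symbol, the most abundant one called higher in CPM.

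Brush-border enzymes and transporters moved in both directions. Of 12 tested members of the brush-border enzyme list 4 were higher and 3 lower (median 0.27), and 1 of the lower ones, vil1, encodes the microvillus actin bundler and no enzyme. The aminopeptidase A gene enpep had 470, 290, 539, 627 and 743 CPM at 65 dph, against 175, 268, 232, 169 and 340 CPM at 20 dph, so replicate 2 at 65 dph lay within the 20 dph range (1.17, SE 0.34). The aminopeptidase N gene anpepa rose (0.54, SE 0.16), its copy anpepb was not called (-0.06, SE 0.19), and tmprss15, the enteropeptidase that activates trypsinogen, fell by 1.42 (SE 0.24). The meprin beta gene mep1b, a brush-border metalloprotease, had 0 counts in all 5 libraries at 65 dph, against 380, 19.7, 4.8, 160 and 237 CPM at 20 dph. With a floor of 3 counts over the 65 dph group, against 7797 counts at 20 dph, its pooled level was at least 2590-fold lower at 65 dph. That bound covers counting error and not the spread between the 20 dph libraries. The bound ran from 1560 without Commercial 20 dph replicate 1 up to 3220 over the other left-out 20 dph libraries. Meprin alpha gene mep1a.2 was not called (0.01, SE 0.21). The peptide transporter gene slc15a1a had 191, 137, 170, 103 and 206 CPM at 65 dph, against 433, 336, 391, 333 and 497 CPM at 20 dph. It fell with no overlap (-1.30, SE 0.20). Of 5 tested peptide and amino acid transporters it was the 1 lower member, and slc16a10 was higher (0.47, SE 0.13), with a list median of 0.31. Of 9 tested sugar, vitamin and mineral transporters 5 were lower (median -0.57), such as slc11a2, the iron importer (-1.16, SE 0.18). With library size alone 3 were lower and 1 higher. Summed reads of these 9 genes were 0.256 to 0.414% at 65 dph and 0.157 to 0.279% at 20 dph. A neutral amino acid transporter gene outside both lists, slc6a18, rose by 3.44 (SE 0.52). It had 189, 438, 201, 744 and 187 CPM at 65 dph, against 32.9, 40.3, 31, 20.7 and 37.4 CPM at 20 dph. All 65 dph libraries were higher, and they varied widely among themselves. Of the 10 most abundant genes with a symbol that were called higher, cuzd1.2 had the widest change, with 1170, 1500, 1410, 1590 and 2130 CPM at 65 dph, against 236, 114, 169, 137 and 242 CPM at 20 dph (3.12, SE 0.27). Its groups lay far apart.

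Of 6 tested aquaporins, which are channels for water and some also for glycerol, 3 fell and 1 rose. Those that fell were aqp10a, aqp3a (-2.01, SE 0.53) and aqp12 (-6.91, SE 1.16), and aqp12 is taken up again below with the pancreas markers. The glycerol channel gene aqp10a had 0.582, 1.65, 0, 0.249 and 0.682 CPM at 65 dph, against 200, 83.3, 99.6, 176 and 55.7 CPM at 20 dph. Its level at 65 dph was close to 0 (-7.57, SE 0.82), while its copy aqp10b did not pass the test (-0.15, SE 0.21). The gene aqp8a.2 rose by 3.45 (SE 0.93), with 16.2, 23.4, 9.8, 8.73 and 71.4 CPM at 65 dph, against 0.0895, 0, 0.436, 0.941 and 10.7 CPM at 20 dph. Its groups overlapped, because replicate 5 at 20 dph lay above 2 of the 65 dph libraries. Without that library its value was 6.14, and with 1 other Commercial library left out it lay between 2.61 and 3.66.

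Several of the widest falls stood beside pancreas and liver markers that varied between the 20 dph libraries. All 3 tested genes of pancreatic enzymes were lower (median -3.77), yet none had groups that did not overlap. The elastase gene ela2l had 14.1, 68.1, 110, 48.4 and 99.9 CPM at 65 dph, against 1040, 365, 65.9, 1820 and 896 CPM at 20 dph. Replicate 3 at 20 dph lay within the 65 dph range. The chitinase gene chia.1 had 0.679, 0.55, 0.32, 0 and 0.795 CPM at 65 dph, against 2120, 358, 222, 1320 and 1340 CPM at 20 dph (-11.09, SE 1.44). Thus in replicate 3 at 20 dph, where elastase was no higher than at 65 dph, chia.1 stood at 222 CPM and mep1b at 4.8 CPM. The prothrombin gene f2, the only 1 of 10 tested liver genes called (-4.72, SE 1.33), had 0.679, 2.2, 1.17, 0.624 and 1.14 CPM at 65 dph, against 44.7, 9.96, 2.94, 55.5 and 41.7 CPM at 20 dph. The creatine synthesis gene gamt (-3.86) and the histidine ammonia-lyase gene hal (-5.19) had their lowest 20 dph level in replicate 3 as well. So did the aquaporin gene aqp12 (-6.91), at 1.53 CPM there against 12.4 to 34.3 CPM in the other 20 dph libraries. The other 9 liver genes had fold changes between -3.17 and 0.00, and none passed the test. The filter on low counts removed fetub (0 counts at 65 dph and 254 at 20 dph), plg (1 and 46) and serpinc1 (2 and 4). It also removed f9a and uox, with 0 counts at both ages. Summed liver genes took 0.00313 to 0.0048% of reads at 65 dph and 0.00378 to 0.0335% at 20 dph. The part of pancreas or liver RNA in these falls was not tested.

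**Figure D4:**
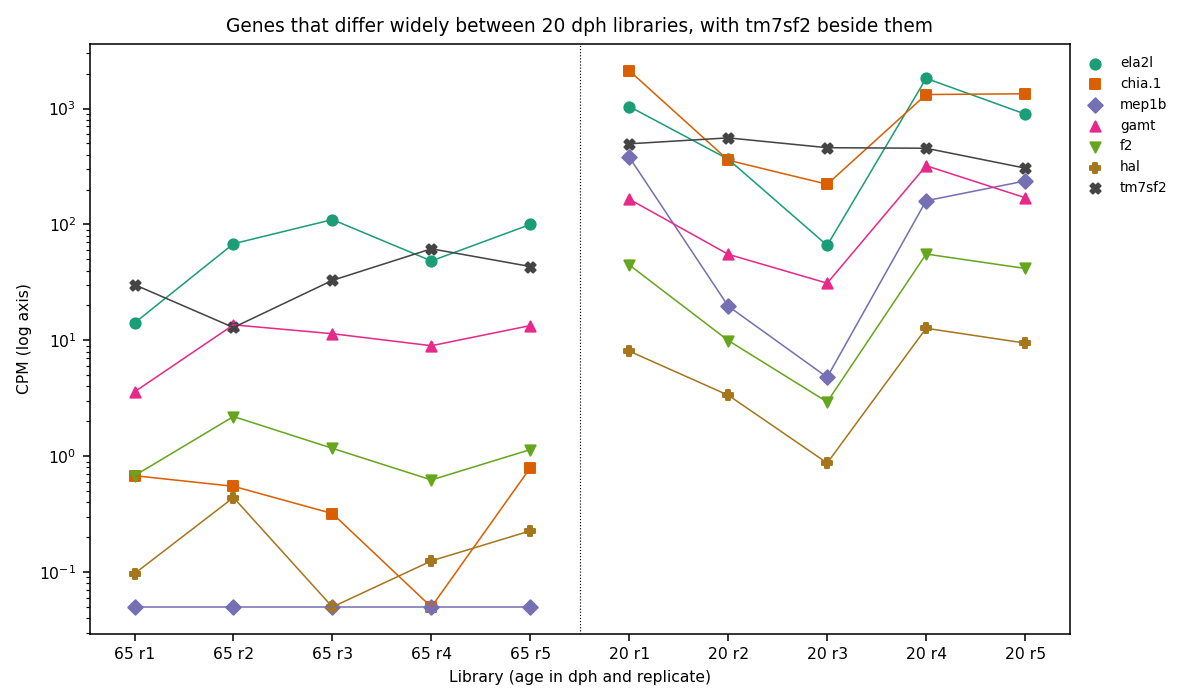
CPM on a log axis in each library, 65 dph at the left and 20 dph at the right of the dotted line, for 7 genes. At 20 dph ela2l, chia.1, mep1b, gamt, f2 and hal are all lowest in replicate 3, whereas tm7sf2 stays between 306 and 558 CPM. Zero counts are drawn at 0.05 CPM.

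Of 11 tested genes of endothelium and erythrocytes 2 were called (18.2%), both of them globin genes and both higher. Of all tested genes with a symbol 38.9% were called. Alpha globin gene hba1 had 72.3, 82.2, 45.2, 90.5 and 58.7 CPM at 65 dph, against 3.22, 1.04, 1.09, 5.17 and 6.95 CPM at 20 dph (4.32, SE 0.54), with no overlap. Beta globin gene hbb1 rose by 2.74 (SE 0.40). The heme synthesis gene alas2 of red cells was not called (-0.41, SE 0.36), nor were the endothelial genes kdr (-0.43, SE 0.32) and pecam1 (0.00, SE 0.34). None of 8 tested smooth muscle genes (median 0.07), 4 skeletal muscle genes (median -3.05) or 11 neuron and hormone genes (median -0.01) was called. The peptide hormone gene cck-n, which that last list does not hold, was called lower (-4.89, SE 1.01). Of the 4 skeletal muscle genes 2 had groups that did not overlap, beside 280 of all 669 tested list members and 21.1% of all features tested. Limma-voom called 1 of the 4 lower, and with library size alone 1 was called higher. Without Commercial 65 dph replicate 2, 2 of the 8 smooth muscle genes were lower, and with library size alone 3 were higher. Of 16 tested matrix genes 2 were lower and 1 higher, and the higher one, thbs4a, was not called without that library (1.09, against 1.82 with it). With all libraries 18.8% of the tested matrix genes were called, and without that library 4 were lower and 0 higher. The complement gene c7a likewise lost its call without it (0.69, against 1.14 with it).

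Of 23 tested genes of Wnt, Notch, BMP and Hedgehog signalling 9 were higher and none lower (median 0.56), and 5 were higher without Commercial 65 dph replicate 2 (median 0.14), the library with the high smooth muscle and matrix share. The BMP antagonist gene grem1b had 29, 46.7, 23.5, 24.8 and 22.8 CPM at 65 dph, against 9.76, 7.3, 5.56, 9.53 and 7.31 CPM at 20 dph. It rose with no overlap (1.89, SE 0.29), and the Hedgehog target gene gli1 rose by 2.79 (SE 0.65). Of 27 tested intestinal transcription factors and nuclear receptors 9 were higher and 3 lower (median 0.25), and with library size alone 13 were higher and none lower. The endoderm factor gata5 (1.34), the glucocorticoid receptor nr3c1 (1.22), the intestinal identity factor cdx1b (0.59) and nr0b2a, a repressor of bile acid synthesis genes in mammals (1.72), rose. The factor hnf4g was not called (-0.09, SE 0.25). Of 17 tested clock genes 3 were higher and 1 lower, with npas2 at 2.43 (SE 0.48), and of 25 tested genes of insulin and growth hormone signalling 3 were higher and 2 lower. The called shares were 39.1% for Wnt, Notch, BMP and Hedgehog genes and 44.4% for the transcription factors and receptors. They were 23.5% for clock genes and 20% for insulin and growth hormone genes. Of all tested genes with a symbol 38.9% were called. Without Commercial 65 dph replicate 3, and likewise without replicate 4, 2 clock genes were higher and 0 lower. With library size alone the counts were 7 and 1 for the clock and 7 and 2 for insulin and growth hormone signalling. Here pik3r1, a regulatory subunit of phosphoinositide 3-kinase, rose by 1.53 (SE 0.22) and mtor, the growth-control kinase, fell by 0.69 (SE 0.11).

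The larger groups were counted again without Commercial 65 dph replicate 2. All 14 tested genes of cholesterol synthesis, 14 of 16 of fatty acid oxidation, 19 of 20 of the respiratory chain, 16 of 20 of the cell cycle, 51 of 66 of the mitochondrial ribosome and import, and 11 of 14 of the proteasome were lower. Of T cell genes 7 of 10 tested were higher, of MHC presentation genes 8 of 11, of interferon-stimulated genes 10 of 22 and of lysosomal genes 14 of 32. List members called came to 343 of 677 tested, 86 higher and 257 lower. Over all features in that fit 8921 of 32961 tested were called, 4031 higher and 4890 lower.

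The change with age in Commercial intestine was set against that in Select intestine in the same fit, with no library shared between the contrasts. The strains lived in separate raceways, so strain and raceway cannot be told apart. The difference of the age effects was called at 0 of 32166 features by edgeR, a background of 0%, with 1781 features (5.54%) at an unadjusted p under 0.05. DESeq2 called 66, and limma-voom called 0. In Select 11019 features were called with age, 34.3% of those tested. Of the 9680 features called in Commercial, 9477 (97.9%) had the same sign in Select, 7398 were called there in the same direction and 6 in the opposite one. Their median size was 0.97 in Commercial and 0.90 in Select on the log2 scale. The features were chosen by their Commercial call, which favours larger sizes there, so these medians do not compare the strains. Among the 357 list members called in Commercial 3 had the opposite sign in Select by rounded values: eif4ea (1.25 in Commercial, -0.16 in Select), prdm1b (-0.90, 0.29) and xpnpep2 (0.56, -0.03). By the same values 353 had the same sign, and the remaining member showed no change in Select. The Commercial call of xpnpep2 was lost in 11 of 19 other settings, such as without Commercial 65 dph replicate 2 (edgeR adjusted p = 0.0616). None of these 3 differences passed the test (edgeR adjusted p = 0.881, 0.881 and 0.887). Outside the lists pfc was called in opposite directions, 3.65 in Commercial and -2.76 in Select (edgeR adjusted p = 0.0277 and 0.0471). Its difference was 6.41 (SE 1.59, edgeR adjusted p = 0.881), and its Commercial call was lost in 7 of 19 other settings. The gene noxa1 rose by 3.64 in Commercial and was not called in Select (0.52), a difference of 3.12 (SE 1.31, edgeR adjusted p = 0.881). The change of cd3e was 2.79 in Commercial and 1.90 in Select, a difference of 0.90 (SE 0.23) whose adjusted p in edgeR was 0.881. The change of tm7sf2 was -3.65 in Commercial and -3.83 in Select, a difference of 0.18 (SE 0.47).

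**Figure D5:**
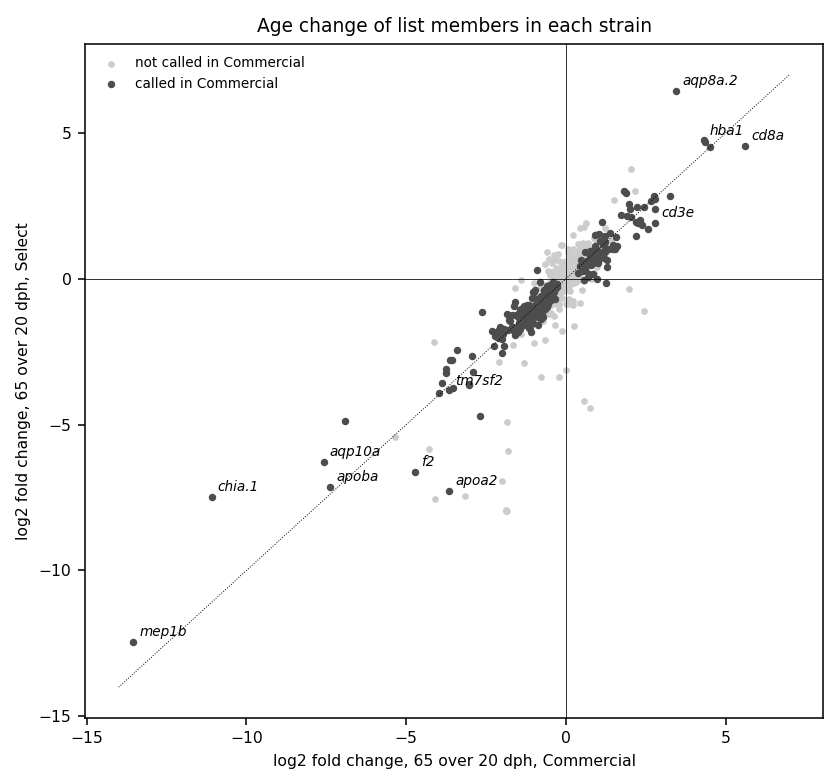
Each point is 1 of the 669 tested list members, with the log2 fold change of 65 over 20 dph in Commercial on the x axis and in Select on the y axis, and the dotted line marks equal values. Of the 357 members called in Commercial (dark), 353 share the sign of Select and 3 have the opposite sign. Signs are those of rounded values, by which the remaining member showed no change in Select.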

How the data were processed

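RNA was measured by poly(A)-selected, stranded sequencing, per the labels' protocols. Per the submitters' processing notes the authors ran Salmon 1.2.1, which divides reads between similar transcripts. The deposited files give an expected count (an estimated number of reads, 34.3% of them not whole) and a TPM (scaled for length and depth) for 78931 transcripts, per the file headers. Neither the transcript release nor the genome build is given in the sources used here. Expected counts were summed per gene by means of RefSeq genes (table for USDA_OmykA_1.1), used for names only, and rounded. Of the transcripts 42376 matched when version numbers were ignored and 1083 with them, and 36555 had no match and stayed single, which gave 61670 features, 6926 of them genes with a symbol. Those genes held 23.4% of reads, LOC genes 43.1% and single transcripts 33.5%. LOC genes and single transcripts were tested and are not named. Near-identical copies left by the genome duplication of salmonids can share reads, so the values of such copies are uncertain.

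Counts of all 20 libraries were fitted with 4 group means in edgeR 4.0.16 (R 4.3.3; TMM, filterByExpr, robust quasi-likelihood, 2-sided), and called at a Benjamini-Hochberg adjusted p under 0.05. CPM values are TMM-scaled, and TPM values are group means of the deposited values summed per gene. The SE of a fold change was its size divided by the square root of the F value of the test, which is an approximation. Alternatives were RLE size factors, library size alone, DESeq2 1.42.0, limma-voom (limma 3.58.1), no filter, a filter of CPM 1 in 5 libraries, the 10 Commercial libraries alone, each Commercial library left out, both alike 65 dph libraries left out, a replicate block, and transcripts tested singly. The fit was tested on simulated data. The median SD of log2 CPM was 0.26 at both ages (0.19 at 65 dph without replicate 2), over 14463 features. Same-numbered libraries of the ages did not deviate together (correlations -0.08 to 0.04), so the replicate numbers were not used as pairs. A floor of 3 counts over a group covers counting error only.

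Genes were named by a rule: per direction the 15 widest called changes among genes with a symbol, without overlap of the groups and with a mean log2 CPM no lower than 1; per list up to 4 called members per direction with the highest level; and per direction the 10 most abundant called genes. Not all are printed. Other members, given to complete a list, were chosen after their values were seen, as were comparisons of symbol pairs. The comparison, its libraries and the gene lists were chosen with earlier results of these data known. Symbols matched the lists exactly or with a copy suffix, and the filter removed 87 of 756 matched members.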

Additional observations from a re-analysis of the deposited data

Results flagged for a closer look

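Summed reads of each list were compared between the 5 libraries of a group. Of 82 groups so tested, 16 held a library far from the other 4 by Dixon's criterion, and chance flags about 1 in 20 groups. Values are percent of reads.

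In Commercial 65 dph replicate 2, 6 lists stood apart. Matrix and fibroblast genes took 0.336% (0.107 to 0.142% in the other 4 libraries), smooth muscle genes 0.37% (0.147 to 0.178%), complement genes 0.067% (0.0213 to 0.0326%), and endothelium and erythrocyte genes 0.0414% (0.022 to 0.0257%). Wnt, Notch, BMP and Hedgehog genes took 0.0462% (0.0255 to 0.0267%), and ribosomal protein genes 1.13% (0.866 to 0.938%). In Commercial 20 dph replicate 5, 6 lists stood apart. Liver genes took 0.0335% (0.00378 to 0.0123%), complement genes 0.0559% (0.0226 to 0.0323%), cytokine genes 0.0575% (0.0234 to 0.0332%), and endothelium and erythrocyte genes 0.0191% (0.0102 to 0.0116%). Insulin and IGF genes took 0.062% (0.0372 to 0.0378%), and clock genes 0.0228% (0.0179 to 0.0189%).

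The other 4 were single cases at 65 dph. Replicate 5 was high in aquaporin genes at 0.0121% (0.00536 to 0.00659%) and in lipid absorption genes at 0.44% (0.369 to 0.388%). Replicate 4 was high in MHC presentation genes at 0.0577% (0.0473 to 0.0502%), and replicate 3 was low in interferon-stimulated genes at 0.0543% (0.0681 to 0.0725%).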

How the results depend on the processing

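The number of features called with age, 9680, ranged from 7831 (transcripts tested singly) to 11139 (library size alone) over all settings and from 8326 to 9743 with 1 Commercial library left out. In the fit on the 10 Commercial libraries alone, 8512 of 28551 features tested were called. The count of list members called, 357, ranged from 328 to 372 with 1 Commercial library left out. Of the 181 genes named by the rule none reversed in up to 19 other settings each, which leave out transcripts tested singly. Of these genes 129 kept their call throughout and 52 lost it in at least 1 setting, 187 of 3433 comparisons in all. Limma-voom lost the calls of mep1b, aqp12, hal, f2, cck-n, pla2g15, syt15, noxa1, parp14rs3, krt5, pfc, rorb, thbs4a, si:ch211-120k19.1 and si:dkey-266f7.9, and the cause was not tested. Of 41 lists 17 had a count that moved by more than 1.5 times in some setting, and with library size alone the median changed sign in 5: fatty acid synthesis (-0.07, then 0.22), insulin signalling (-0.09, then 0.19), antimicrobial (-0.20, then 0.07), complement (-0.23, then 0.06) and neuron (-0.01, then 0.27) genes.

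The difference of the age effects, 0 features, moved to 66 with DESeq2 (39 higher and 27 lower) and to 2 without both alike 65 dph libraries, and ranged from 0 to 1 with 1 Commercial library left out (1 without Commercial 20 dph replicate 4 or 65 dph replicate 4). The cause was not tested.

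With the replicate number as a block, 9291 features were called with age, 0 for the difference of the age effects, and 354 list members. Of 5 libraries at 65 dph, 1 correlated best with the 20 dph library of its own number. Low genes are limited by depth: at 7518705 to 12442368 expected counts a library, 1 CPM is worth few reads.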

Other observations

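Pairs of genes whose symbols differ only in a final a or b were compared after the values were seen. Some are copies of 1 gene and others are different genes or subunits, such as etfa and etfb, so the counts are of symbol pairs and not of gene copies. Of 132 tested pairs 16 had both genes called in the same direction, 5 had both called in opposite directions, 54 had 1 gene called and 57 had none. The 5 opposite pairs were eif4e (eif4ea 1.25 and eif4eb -0.96), itpk1 (1.23 and -0.42), mst1r (0.71 and -1.30), pkdcc (1.71 and -1.84) and rdh14 (1.14 and -0.39), as log2 fold change of the a gene and then the b gene, 65 over 20 dph. A call in 1 gene and not in the other does not show that the pair differs, and that difference was not tested.

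Stress and immediate early genes were mostly not called (26.1% of those tested were, beside 38.9% of all tested genes with a symbol). Of 23 tested members 5 rose and 1 fell, among them hsp70a, a heat shock chaperone, with 26.4, 7.48, 8.52, 7.48 and 7.95 CPM at 65 dph, against 2.33, 1.39, 5.02, 2 and 1.32 CPM at 20 dph. Without overlap between the ages, replicate 1 at 65 dph stood highest. The constitutive chaperone gene hsp90ab1 fell by 0.56 (SE 0.09), and jun (-0.19, SE 0.25) and dusp1 (-0.11, SE 0.31) were not called.

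Of the 2059 called genes with a symbol, the peptide hormone gene cck-n fell by 4.89 (SE 1.01), with 0.194, 0, 0, 0 and 0.341 CPM at 65 dph, against 5.46, 1.74, 1.09, 5.41 and 4.31 CPM at 20 dph. It was lowest at 20 dph in replicate 3, the library with the least elastase. Metallothionein gene mt2, a metal-binding protein, ranked second in TPM among genes with a symbol at 65 dph with 9240 ± 3860 TPM, against 6310 ± 935 TPM at 20 dph (SD, n = 5 each), and was not called.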
